A study of Mus musculus with 72 samples.

Results

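The salt-inducible kinases Sik1, Sik2 and Sik3 were followed across mouse hearts taken 16 months after a whole-body radiation exposure. The members were the 3 genes whose probe sets carry these symbols, out of 19505 genes with an annotated probe set on the array, and each had 1 probe set. Sik1 was chosen by its own measured levels, because it was lower at every dose of Cs-137 gamma rays than in the Cs sham hearts. Its values in the Cs groups are therefore a description without a test. Sik2 and Sik3 were taken along as the other members of the family. Averaged over the 4 Cs doses, Sik1 differed from Cs sham by -0.95 log2 units. Outside the Cs groups it passed the test at 1 dose, 13 cGy of Ti ions, where it was lower than in Ti sham. Its highest mean stood at 4 cGy of Si ions, a difference from Si sham that did not pass. Sik2 and Sik3 passed the test in no comparison.

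Salt-inducible kinases are serine/threonine kinases of the AMPK-related family and are switched on by the upstream kinase LKB1 (Stk11). They phosphorylate the CRTC coactivators of CREB and the class IIa histone deacetylases, which 14-3-3 proteins then hold in the cytoplasm, so that CREB and MEF2 target genes stay low. Protein kinase A, activated by cAMP, phosphorylates the salt-inducible kinases and relieves this brake. Sik1 is itself a CREB target and behaves as an immediate early gene, Sik2 is known for its abundance in adipose tissue, and Sik3 is expressed widely. In the suprachiasmatic clock of mice Sik1 limits the resetting of the clock by light.

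Hearts came from female CB6F1/Hsd mice that were 100 to 120 days old at a single whole-body exposure, were not bearing tumours and were held for a further 16 months. The Cs-137 groups were 40, 80 and 120 cGy with 5 hearts each, 160 cGy with 4, and a Cs sham with 5. The Si-14 groups (260 MeV/n, a linear energy transfer near 70 keV/µm) were 4, 8, 16 and 32 cGy with 5 hearts each and a Si sham with 4. The Ti-22 groups (1000 MeV/n, near 100 keV/µm) were 3, 13 and 26 cGy with 5 hearts each, 6.5 cGy with 4, and a Ti sham with 5. Each radiation type had its own sham mice, which went through confinement alone, for a matching time and without any dose. Total RNA of frozen heart tissue was hybridised to Clariom S Mouse arrays, 72 in all, in 2 processing batches that the labels name. The methods of the study count the replicates of a group as separate animals, so each array is called a heart here. Heart tissue holds many cell types, so fewer cells of a type and less RNA per cell cannot be told apart in any value given here. The labels do not give the hour of day at which a heart was taken.

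Batch was the main split between arrays: the first component of the quantile-normalized values carried 18.4% of the variance, and the batch label explained 83.9% of that component. Batch 1 held 43 arrays and batch 2 held 29. No Cs 160 cGy heart was in batch 2, no Si sham heart was in batch 1, and Ti 6.5 cGy had 1 heart in batch 2. Cs 160 cGy replicate 4 and Ti 6.5 cGy replicate 3 are labelled batch 1 but lay with the batch 2 arrays. All 7 ventricular cardiomyocyte markers were above the 95th percentile of the negative control probe sets on all 72 arrays, with a list mean between 11.79 and 12.25 log2. The mean of 5 atrial markers ran from 6.10 to 12.84 between hearts and had a correlation of -0.08 with Sik1.

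In the RefSeq annotation of mouse build GRCm38.p6, Sik1 lies on chromosome 17 (31844248 to 31855804), and Sik2 (50889644 to 51009132) and Sik3 (46012820 to 46224194) lie on chromosome 9. The span of Sik1 overlaps the long noncoding gene Gm41564, that of Sik2 the protein-coding gene Ppp2r1b, and that of Sik3 the long noncoding gene Gm46110 and the pseudogene Pou5f1-rs9. The signal of a probe set was read as that of its annotated gene. All 3 probe sets were above the median of 5222 negative control probe sets on 72 of 72 arrays. They were above the 95th percentile of those controls on 67 arrays for Sik1, 62 for Sik2 and 72 for Sik3, so the lowest Sik1 and Sik2 values lie close to background.

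CREB binds the cAMP response element, whose core reads TGACG, or CGTCA on the other strand, and can also bind this core alone. RefSeq promoters, 250 bases before to 50 after the start site, matched 2 of the 3 members, Sik2 and Sik3. They are printed with that of Nr4a1, the gene whose level tracked Sik1 most closely (values below), because Nr4a1 is an established CREB target. Capitals mark each core in either orientation.
Nr4a1, chr15:101266596-101266895, plus strand: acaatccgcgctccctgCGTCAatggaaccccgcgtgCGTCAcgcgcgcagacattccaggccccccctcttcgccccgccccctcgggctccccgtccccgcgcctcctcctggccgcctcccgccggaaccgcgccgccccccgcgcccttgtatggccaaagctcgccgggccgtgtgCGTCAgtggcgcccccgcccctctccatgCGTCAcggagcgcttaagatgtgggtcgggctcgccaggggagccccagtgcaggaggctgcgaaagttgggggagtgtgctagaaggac
Sik2, chr9:51009024-51009323, minus strand: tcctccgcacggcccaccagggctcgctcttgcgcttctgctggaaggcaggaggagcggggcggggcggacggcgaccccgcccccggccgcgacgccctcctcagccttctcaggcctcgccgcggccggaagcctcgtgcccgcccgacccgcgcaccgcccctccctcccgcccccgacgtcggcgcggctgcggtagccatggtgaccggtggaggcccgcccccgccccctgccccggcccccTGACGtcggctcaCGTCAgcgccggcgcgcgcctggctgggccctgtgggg
Sik3, chr9:46012570-46012869, plus strand: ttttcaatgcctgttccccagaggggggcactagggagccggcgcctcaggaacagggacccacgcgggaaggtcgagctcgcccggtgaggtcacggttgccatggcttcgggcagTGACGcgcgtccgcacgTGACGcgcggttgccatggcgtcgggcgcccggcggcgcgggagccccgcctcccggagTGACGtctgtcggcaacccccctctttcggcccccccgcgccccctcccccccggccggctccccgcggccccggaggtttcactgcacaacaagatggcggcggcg
Nr4a1 held 4 cores in this window, Sik3 held 3 and Sik2 held 2. The core stood in 20.8% of all 32851 promoters of the table, and in 11 of the 12 promoters found for a list of cAMP and CREB target genes. The full element, TGACG followed directly by TCA, was in none of the 3 windows and in 1.79% of all promoters. The canonical E-box CACGTG, the motif bound by the clock factors CLOCK and BMAL1, occurred once, in Sik3, where it shares 2 bases with a core. It stood in 7.15% of all promoters. These matches describe letters and not binding.

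Sik1 varied far more between hearts than its relatives. Its quantile-normalized log2 level spanned 2.76 units over the 72 arrays, against 0.92 for Sik2 and 0.67 for Sik3. After batch, the exposure group took 38.7% of the variance of Sik1, 13.5% of that of Sik2 and 8.24% of that of Sik3. A factor of 15 groups takes part of the variance by chance alone, and these shares are not corrected for that. The share of Sik1 includes the Cs groups by which it was chosen, so its excess over the others partly restates that choice. Hearts of the same group also differed more in Sik1: its residual SD of 0.44 was at percentile 98.2 of all genes, that of Sik2 (0.19) at 32.3 and that of Sik3 (0.10) at 1.93. Sik3 was thus among the steadiest genes on the array, although batch alone took 59.0% of its variance, against 23.4% for Sik1 and 12.5% for Sik2.

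Ordered by the group mean after batch removal, Sik1 was highest in Si 4 cGy hearts (8.25 ± 0.53 log2, SD, n = 5), followed by Cs sham (8.22 ± 0.24, n = 5) and Ti sham (7.93 ± 0.50, n = 5). It was lowest in Ti 13 cGy (6.88 ± 0.31, n = 5), below Cs 80 cGy (7.14 ± 0.27, n = 5) and Cs 160 cGy (7.18 ± 0.45, n = 4). The highest and lowest groups were 1.37 apart (SE 0.27). No step between neighbours in this order exceeded 1.10 times its SE, so no neighbours differed beyond their spread. The Si sham, at 7.28 ± 0.53 (n = 4), was at rank 10 of the 15 groups, next to irradiated groups rather than to the other 2 shams. Its hearts were all in batch 2, so this rank depends on the batch correction. Before batch removal its mean was 7.58.

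**Figure D1:**
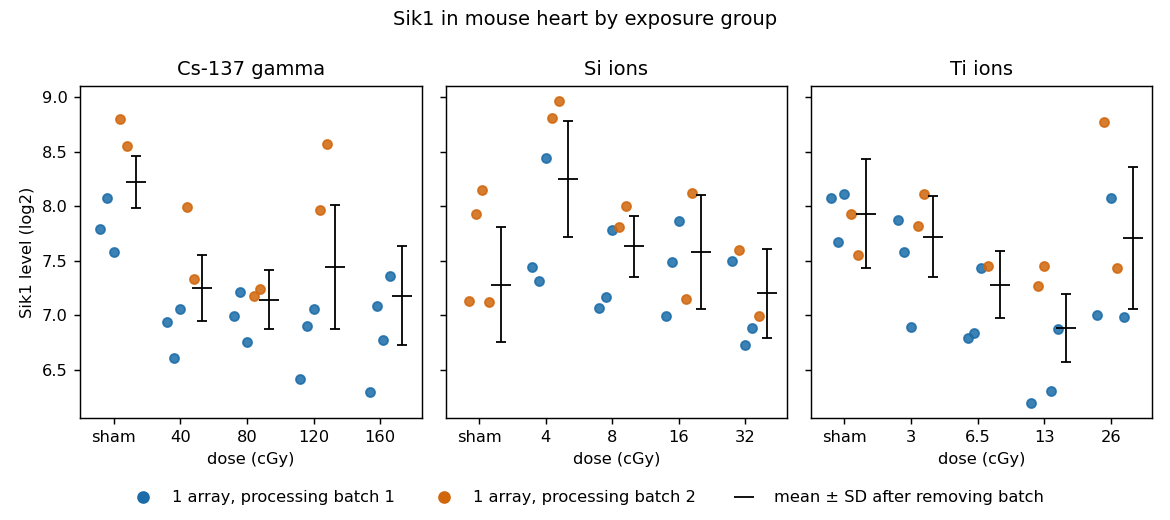
Sik1 log2 level (quantile normalized, vertical axis) in each heart by dose (horizontal axis, cGy) in 3 panels, Cs-137 gamma, Si ions and Ti ions; points are single arrays coloured by processing batch, and bars are the group mean ± SD after batch removal. Every Cs dose averages between 7.14 and 7.44 and Cs sham 8.22, while Si 4 cGy averages 8.25 and Ti 13 cGy 6.88.

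At each Cs dose Sik1 stood between 0.472 and 0.583 of its sham level. After batch removal, the 5 hearts at 40 cGy read 7.25, 6.92, 7.37, 7.68 and 7.02, against 8.10, 8.38, 7.89, 8.50 and 8.24 in Cs sham. The 5 hearts at 80 cGy read 7.29, 7.52, 7.06, 6.88 and 6.94. Those at 120 cGy read 6.72, 7.21, 7.36, 7.65 and 8.26, and the 4 at 160 cGy read 6.61, 7.39, 7.07 and 7.66. Every heart at 40, 80 and 160 cGy was below the lowest Cs sham heart, as were 4 of 5 at 120 cGy. Replicate 5 at 120 cGy, at 8.26, was inside the sham range.

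The fitted difference from Cs sham was -0.97 at 40 cGy and -1.08 at 80 cGy. It was -0.78 at 120 cGy (SE 0.22 at each of these 3 doses) and -0.95 at 160 cGy (SE 0.24). They are fitted within the Cs arrays, so they can depart a little from the gap between the means above, which come from all 72 arrays. Their order did not follow the dose, and doses were not tested against each other. Within batches 1 and 2 the difference was -0.94 and -1.02 at 40 cGy, then -0.83 and -1.46 at 80 cGy. It was -1.02 and -0.41 at 120 cGy, and -0.94 at 160 cGy, measured in batch 1 alone. That last value includes replicate 4, labelled batch 1 but lying with the batch 2 arrays. With single arrays left out, the fitted difference at 160 cGy ran from -1.11 (without replicate 4) to -0.75 (without replicate 1). Of all genes, 0.220% (40 cGy), 0.482% (80 cGy), 0.682% (120 cGy) and 6.91% (160 cGy) passed an adjusted p under 0.25 (limma with Benjamini-Hochberg, the threshold of the study). The same arrays chose Sik1, and nothing is read from its place among them. The neutrophil marker S100a8 rose by 0.86 at 80 cGy (adjusted p 0.239, limma) and by 0.83 at 120 cGy (0.246). It was not above the 95th percentile of controls on any array. At 160 cGy the red cell marker Alas2 rose by 0.95 (0.170) and the ventricular cardiomyocyte marker Myl3 fell by 0.30 (0.0888). The endothelial marker Cldn5 fell there by 0.56 (0.217). Over the neutrophil and red cell, ventricular and endothelial lists the medians at 160 cGy were 0.14, -0.05 and 0.05. The part of these markers in the Sik1 values was not tested.

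At Ti 13 cGy Sik1 fell to about 0.486 of its sham level. After batch removal the 5 hearts at 13 cGy read 6.51, 6.97, 7.15, 6.62 and 7.18, against 8.38, 7.97, 8.42, 7.63 and 7.24 in Ti sham. Both groups stood clear of each other, though the highest Ti 13 cGy heart was close to the lowest Ti sham heart. The difference was -1.04 (SE 0.26), with an adjusted p of 0.195 from limma over all 19505 genes, where 0.426% of genes passed. Without any single array the difference stayed between -1.21 and -0.93, but the call was lost in several cases: adjusted p lay at 0.400 without Ti sham replicate 1, at 0.401 without Ti sham replicate 3, and between 0.255 and 0.345 without any 1 of the 5 Ti 13 cGy hearts. Within batches the difference was -1.49 in batch 1 (3 against 3 hearts, adjusted p 0.368 by limma) and -0.38 in batch 2 (2 against 2, adjusted p 0.921).

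The other Ti doses did not pass. At 6.5 cGy the 4 hearts read 7.10, 7.15, 7.74 and 7.15, a difference of -0.66 (SE 0.28, adjusted p 0.297 by limma), where 5.60% of genes passed. The high one was replicate 3, labelled batch 1 but lying among batch 2 arrays. Markers of other cells passed at this dose too: the fibrinogen gene Fgb rose by 0.69, the smooth muscle myosin gene Myh11 rose by 0.55 and the collagen gene Col1a1 fell by 0.38 (adjusted p 0.179 to 0.215, limma). Of the mural (vessel wall) markers, 2 of 5 were below 0 (median 0.17), as were 2 of 4 fibroblast markers (median 0.03). The mean of the 5 hepatocyte markers lay between 4.94 and 7.77 at 6.5 cGy and between 5.48 and 6.83 at 13 cGy, against 4.88 to 5.57 in Ti sham, with a median difference over the list of 1.03 at 6.5 cGy and 0.61 at 13 cGy. Their part in the Sik1 values was not tested. At 3 cGy the hearts lay between 7.20 and 8.17 (-0.21, SE 0.26, adjusted p 0.827 by limma; 0.0103% of genes passed). At 26 cGy they read 7.30, 8.46, 8.38, 7.12 and 7.28, 2 high and 3 low, which gave -0.22 (SE 0.26, adjusted p 0.884 by limma), and 0 of all genes passed, or 0%, while 1380 had an unadjusted p under 0.05. The Ti dose order of Sik1 was therefore not monotonic, with 13 cGy lowest and 26 cGy overlapping the sham values. Over the 4 Ti doses together Sik1 did not pass (limma F test, adjusted p 0.314), against 0.590% of genes that did.

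At the lowest Si dose the difference had the other sign. The 5 hearts at 4 cGy read 7.74, 7.62, 8.74, 8.51 and 8.65 after batch removal, against 6.83, 7.62, 7.84 and 6.81 in Si sham. Of the hearts at 4 cGy, 3 were above the highest Si sham heart, and the groups overlapped. The difference of 0.93 (SE 0.31, 1.91-fold, 95% interval 0.29 to 1.58) had an unadjusted p of 0.00613 and an adjusted p of 0.618 in limma, so it did not pass, and 0.159% of genes did. The Si sham hearts were all in batch 2, and within that batch 2 hearts at 4 cGy stood 1.30 above the 4 sham hearts.

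Higher Si doses lay near sham. The differences were 0.31 (SE 0.31) at 8 cGy, 0.27 (0.31) at 16 cGy and -0.12 (0.31) at 32 cGy, with adjusted p of 0.995, 0.999 and 0.963 in limma. The share of genes passing was 0.128%, 0.0205% and 0.0513% at these doses. Means at 4, 8, 16 and 32 cGy ran 8.25, 7.63, 7.58 and 7.20, each lower than the one before, but no neighbouring doses were tested against each other. The F test over the 4 Si doses gave an adjusted p of 0.772 for Sik1, and 0.113% of genes passed it.

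After batch removal the Sik1 means also differed among the 3 unirradiated groups, though the one tested difference did not pass. All 4 Si sham hearts were in batch 2, so gaps to Si sham depend on the batch correction. Within batch 2, before batch removal, Sik1 averaged 7.58 in the 4 Si sham, 7.74 in 2 Ti sham and 8.68 in 2 Cs sham hearts. Ti sham was 0.65 above Si sham (SE 0.29, adjusted p 0.302 in a limma fit of all 72 arrays), a comparison in which 6.35% of genes passed. Cs sham was 0.94 above Si sham (SE 0.29) and 0.29 above Ti sham (SE 0.27). These 2 values involve the Cs sham hearts that helped to select Sik1 and are given without a test, beside 5.67% and 0.113% of all genes passing. The Cs sham hearts enter both the Cs sham to Si sham gap and the 4 Cs dose differences, so nothing is read from their sizes. The list mean of hepatocyte markers, genes not expected from heart muscle, lay at 5.14 to 8.00 log2 in Cs sham, 4.88 to 5.57 in Ti sham and 5.67 to 8.67 in Si sham, none of the 5 above the 95th percentile of controls on all arrays. Its correlation with Sik1 over all arrays was -0.07.

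The difference from sham, averaged over the 4 doses, was 0.92 higher for Si than for Ti (SE 0.32, 95% interval 0.28 to 1.56), with an unadjusted p of 0.00558 and an adjusted p of 0.339 in limma, where 0.779% of genes passed. For Cs against Si it was -1.36 (SE 0.32) and for Cs against Ti -0.44 (SE 0.30), both without a test, while 2.20% and 0.0615% of genes passed. Each of these values takes in the level of 2 sham groups, which differed as described.

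**Figure D2:**
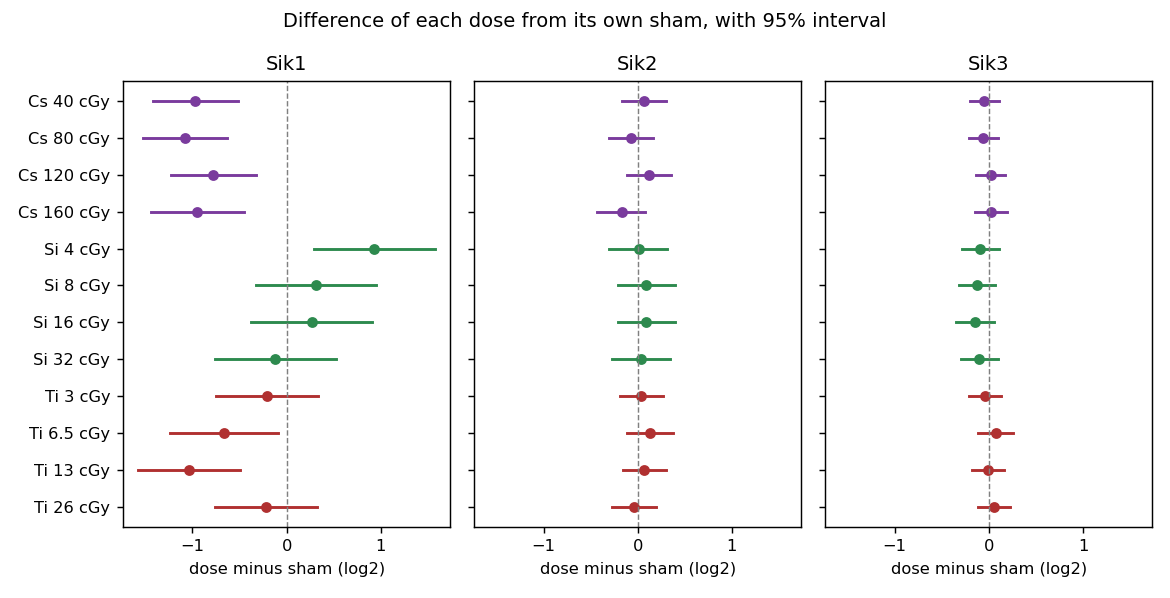
Difference of each dose from its own sham (horizontal axis, log2, with the 95% interval of the limma fit) for Sik1, Sik2 and Sik3 in 3 panels; rows are the 12 doses and colours the radiation types. Sik1 runs from -1.08 at Cs 80 cGy to 0.93 at Si 4 cGy, while the points of Sik2 and Sik3 stay between -0.17 and 0.13.

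Sik2 did not pass at any dose. Its group means after batch removal ran from 6.52 ± 0.21 (SD, n = 4) in Cs 160 cGy to 6.80 ± 0.22 (n = 5) in Cs 120 cGy, 0.28 apart (SE 0.13), with the 3 shams at 6.68 (Cs), 6.55 (Si) and 6.64 (Ti). Its largest fitted difference from sham was -0.17 (SE 0.12, adjusted p 0.600 by limma) at Cs 160 cGy, where the 4 hearts read 6.55, 6.22, 6.67 and 6.64, against 6.48, 6.91, 6.64, 6.63 and 6.72 in Cs sham. Replicate 2 was below every Cs sham heart, and the other 3 were inside the sham range. All 12 of its intervals lay between -0.43 and 0.40. The F tests gave adjusted p of 0.612 over the Cs doses, 1 over the Si doses and 0.862 over the Ti doses in limma, and 3.18% of genes passed the F test for Cs. In Ti 26 cGy replicate 4 stood apart at 6.98, with the other 4 hearts between 6.48 and 6.53.

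Sik3 had the narrowest range of the 3. Its group means ran from 8.98 ± 0.05 (SD, n = 5) in Cs 80 cGy to 9.15 ± 0.11 (n = 4) in Si sham, 0.17 apart (SE 0.08). All 4 Si doses differed from Si sham in the same sign (-0.09, -0.13, -0.15 and -0.10 in dose order, SE 0.10 each), and none passed (adjusted p 0.871 to 0.999, limma). At 16 cGy the hearts read 8.94, 8.82, 9.01, 8.99 and 9.17, against 9.26, 9.03, 9.24 and 9.08 in Si sham, so that 4 of 5 were below the lowest sham heart. The F tests gave adjusted p of 0.928 over Cs, 0.999 over Si and 0.882 over Ti doses in limma. Between radiation types and between shams, neither Sik2 nor Sik3 passed, and their largest such difference was -0.15 for both.

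**Figure D3:**
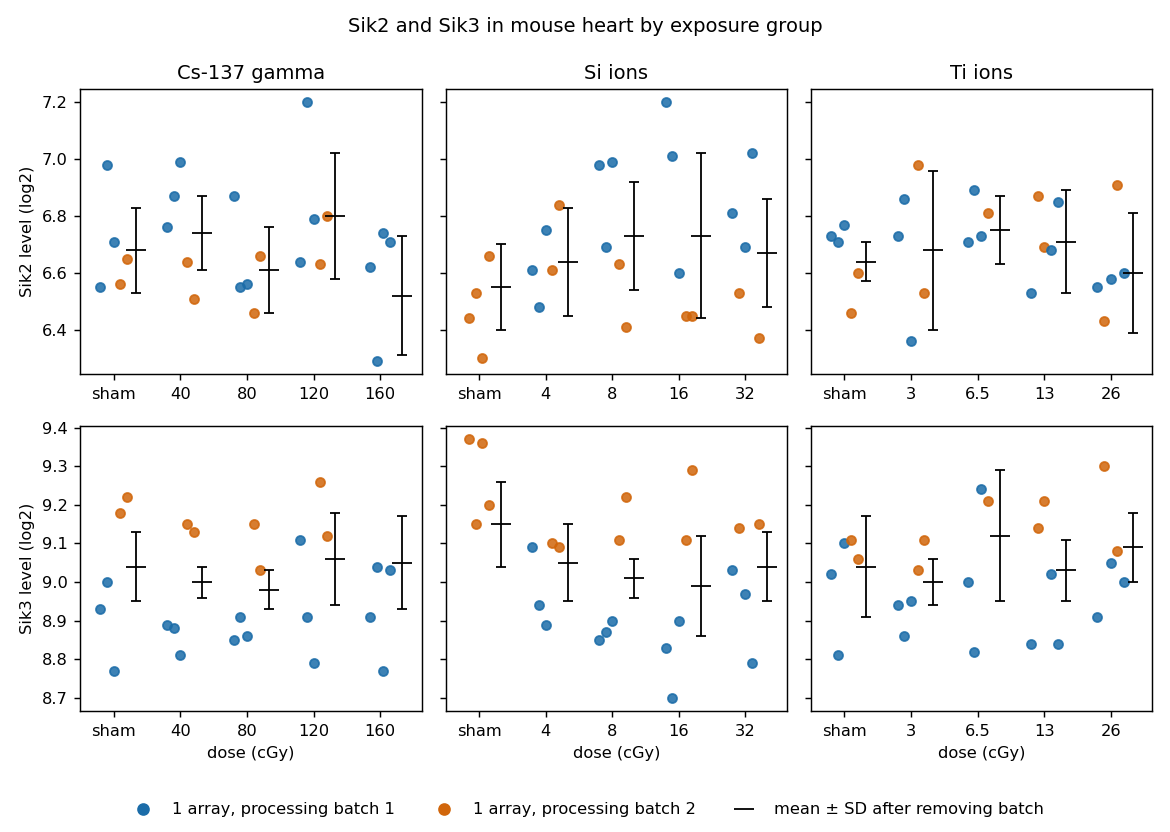
Sik2 (upper row) and Sik3 (lower row) log2 level, quantile normalized, in each heart by dose (cGy) for Cs-137 gamma, Si ions and Ti ions; points are arrays coloured by batch, bars the mean ± SD after batch removal, and each row has its own scale. Group means stay between 6.52 and 6.80 for Sik2 and between 8.98 and 9.15 for Sik3, and batch 2 arrays sit higher for Sik3.

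Calls for the machinery around the salt-inducible kinases are given beside the share over all genes, and nothing is read from counts near that share. Over the 12 doses against sham, none of 60 tests passed for the LKB1 complex (5 genes), none of 96 for the adenylyl cyclases, phosphodiesterases and the G protein gene Gnas that set cAMP (8 measured genes), none of 72 for the substrates that salt-inducible kinases phosphorylate (the CRTC coactivators and class IIa deacetylases, 6 of 7 measured) and none of 84 for the 14-3-3 proteins (7 genes). Of 234060 tests over all genes, 1366 passed upward and 1499 downward, or 1.22%. At that share, no call in so few tests does not set a list apart from other genes. Among 10 AMPK-related kinases outside the family, 1 of 120 tests passed: Nuak1, another LKB1-dependent kinase, fell by 0.35 at Ti 6.5 cGy (adjusted p 0.183, limma). In protein kinase A, the regulatory subunit gene Prkar1a fell by 0.24 at Cs 160 cGy and by 0.26 at Ti 6.5 cGy (adjusted p 0.204 and 0.227, limma), 2 of 72 tests. Of the CREB and MEF2 factors, Mef2d rose by 0.30 at Cs 160 cGy and Mef2c by 0.25 at Ti 6.5 cGy (adjusted p 0.196 and 0.236, limma), also 2 of 72. These calls fell at the 2 doses where the most genes passed.

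Targets of cAMP and CREB gave 13 calls in 168 tests, or 7.74%, 11 of them downward, beside 1.22% of tests over all genes. All these calls fell at Cs doses, by which Sik1 was chosen, and at Ti 6.5 cGy. The list was chosen with earlier results of these data known, so its share of calls is a description. Of all genes, 6.91% passed at Cs 160 cGy and 5.60% at Ti 6.5 cGy, against 0.220% to 0.682% at the other Cs doses. At Cs 40 cGy the orphan nuclear receptor Nr4a1 fell by 1.07, the stress factor Atf3 by 0.55 and the insulin receptor substrate Irs2 by 0.48 (adjusted p 0.201, 0.177 and 0.177, limma). At Cs 80 cGy Nr4a1 fell by 0.97 and Irs2 by 0.57 (0.239 and 0.0676). At Cs 120 cGy Nr4a3 fell by 0.91 (0.246), and at Cs 160 cGy Nr4a1 fell by 0.96, Atf3 by 0.61, the GTPase Gem by 0.45 and the AP-1 member Fosb by 0.43 (0.128, 0.0593, 0.136 and 0.246). The median over the 14 measured targets was -0.26, -0.17, -0.08 and -0.34 at Cs 40, 80, 120 and 160 cGy, beside medians of all genes between -0.01 and 0.00. Medians of like size stood outside the Cs groups: 0.18, 0.06, -0.06 and -0.21 at Si 4, 8, 16 and 32 cGy, and 0.27, 0.24, -0.02 and -0.01 at Ti 3, 6.5, 13 and 26 cGy. At Si 32 cGy 14 of 14 targets were below 0. No target passed at a Si dose or at Ti 3, 13 or 26 cGy. At Ti 6.5 cGy Nr4a3 fell by 0.90, while the early response factor gene Egr1 rose by 1.01 and the G-protein regulator Rgs2 by 0.49 (adjusted p 0.174, 0.168 and 0.244, limma).

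Across the 72 arrays, after batch removal, the genes whose level was most like that of Sik1 were Nr4a1 (Pearson r 0.76), the transcriptional corepressor Irf2bp2 (0.74), the endothelial early response gene Apold1 (0.71), the EGF receptor inhibitor Errfi1 (0.70) and the AP-1 member Fosl2 (0.70), out of 11232 genes with a mean log2 of at least 5. For Nr4a1 the r was 0.66 in batch 1 and 0.87 in batch 2, and 0.69 among hearts of the same group. The likeness thus stood within groups as well as between them. All arrays share their processing and include the Cs groups by which Sik1 was chosen, and the values are descriptions. Of the cAMP and CREB targets, 14 of 14 had an r with Sik1 above 0, from 0.04 for Rgs2 to 0.76, with a median of 0.38, beside a median of 0.00 over all genes. For Sik2 the median over the same list was 0.08 and for Sik3 -0.03.

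Single hearts show the likeness. At Si 4 cGy, replicates 3, 4 and 5 had the 3 highest Sik1 levels (8.74, 8.51 and 8.65) and the 3 highest Nr4a1 levels (8.04, 8.31 and 7.93), while replicates 1 and 2 were lower in both (7.74 and 7.62 for Sik1, 6.59 and 6.60 for Nr4a1). At Cs 120 cGy, replicates 4 and 5 were the highest in both (7.65 and 8.26 for Sik1, 7.61 and 7.74 for Nr4a1). Replicates 4 and 5 at that dose were its batch 2 hearts. At Ti 13 cGy, where Sik1 passed, Nr4a1 was -0.32 from sham (SE 0.19, adjusted p 0.666, limma), with hearts at 6.74, 6.39, 6.15, 6.61 and 6.59, against 7.23, 7.09, 6.89, 6.57 and 6.28 in Ti sham.

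Of the 5 genes most like Sik1, Errfi1 had the most calls. It fell at Cs 40, 80, 120 and 160 cGy (-0.92, -0.68, -0.96 and -0.87, adjusted p 0.0128 to 0.193 in limma), rose by 1.12 at Si 4 cGy (0.135) and fell by 0.71 at Ti 13 cGy (0.181). Since it was named for its likeness to Sik1 on these arrays, this is not separate evidence. The endothelial junction gene Cldn5 had an r of 0.51 with Sik1, fell by 0.56 at Cs 160 cGy (adjusted p 0.217, limma) and rose by 0.78 at Si 4 cGy (0.212). The other 4 endothelial markers did not pass at any dose, beside 1.22% of tests over all genes that did. The mean of the 5 markers had an r of 0.27 with Sik1. It was highest in Si 4 cGy (8.63 to 8.70 log2) and lowest in Si sham (8.14 to 8.51), where all hearts were in batch 2. Both groups stood clear of each other, but they were picked as the ends of the 15 groups. The part of these endothelial markers in the Sik1 values was not tested.

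**Figure D4:**
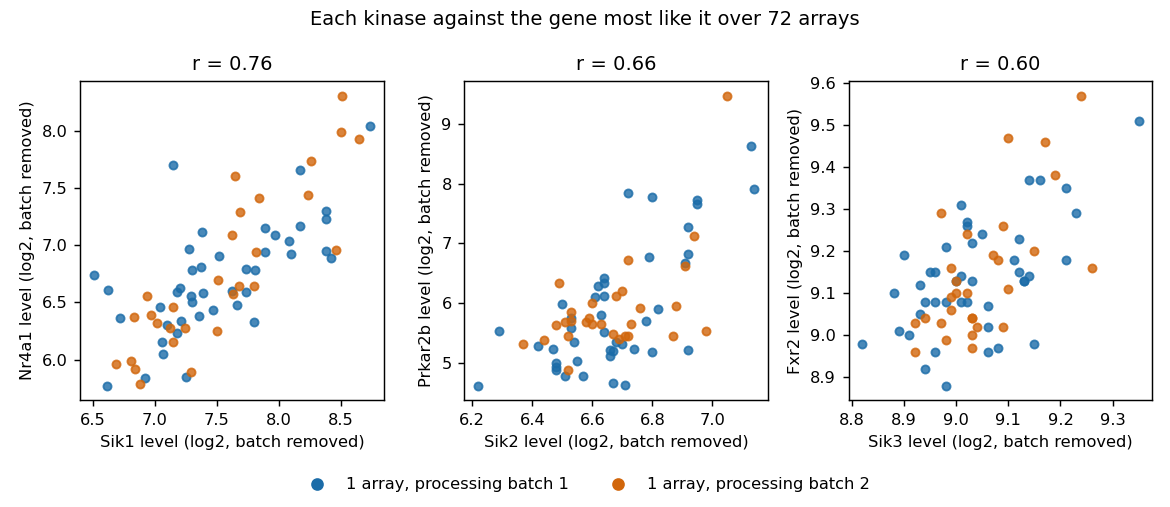
Each kinase (horizontal axis) against the gene most like it (vertical axis) over 72 arrays, both as log2 level after batch removal: Sik1 with Nr4a1, Sik2 with Prkar2b and Sik3 with Fxr2, points coloured by batch. Pearson r is 0.76, 0.66 and 0.60, and the Sik1 cloud is the widest, with both batches along the same line.

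The genes most opposed to Sik1 were the clock repressor Bhlhe41 (r -0.54), the small GTPase gene Rasl11b, the glutathione transferase Gstt2, the clock output factor Dbp and the secreted glycoprotein Stc2 (-0.53 each). The clock genes had many calls. Arntl, which encodes the clock activator BMAL1, fell at Cs 40, 80, 120 and 160 cGy (-1.33, -0.64, -2.11 and -2.25). It also fell at Ti 6.5 and 13 cGy (-1.43 and -1.32) and rose at Si 4, 8 and 32 cGy (2.24, 2.21 and 1.83), with adjusted p from 2.5e-08 to 0.239 in limma. Of its fellow activators, Npas2 fell at Cs 40, 120 and 160 cGy (-0.89, -1.29 and -0.89) and rose at Si 4 and 8 cGy (1.53 and 1.31), and Clock fell at Cs 120 and 160 cGy and Ti 6.5 cGy (-0.56, -0.48 and -0.32). The repressors and outputs that passed were Per2, Per3, Cry2, Ciart, Nr1d1, Nr1d2, Dbp, Tef, Hlf, Bhlhe40 and Bhlhe41, with 35 calls upward, at Cs and Ti doses, and 15 downward, at Si doses. Ciart, for example, rose by 1.59 at Cs 160 cGy, and its difference at Si 32 cGy was -2.25. Over the 12 doses the 3 clock activators gave 17 calls in 36 tests and the 13 repressors and outputs gave 50 in 156, or 47.2% and 32.1% against 1.22% of all tests. The clock lists too were chosen with earlier results known, and these shares are descriptions.

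For Arntl and Dbp the likeness to Sik1 was larger between groups than within them. The r of Sik1 with Arntl was 0.64 over the 15 group means and 0.43 over the 72 arrays, but 0.07 among hearts of the same group. With Dbp the values were -0.76, -0.53 and -0.23. The values over group means and over all arrays include the Cs groups by which Sik1 was chosen. Arntl fell and Dbp rose at all 4 Cs doses, so these values partly restate that choice. Per1, a clock repressor that is also a CREB target, ran otherwise, at -0.01 over the group means, 0.24 over the arrays and 0.45 within groups. The difference between the within-group values of Arntl and Dbp and that of 0.69 with Nr4a1 was not tested. Single doses are given as description only. At Cs 80 cGy Arntl had its smallest Cs difference (-0.64) and Sik1 its lowest Cs mean, and at Si 32 cGy Arntl rose by 1.83 with Sik1 at -0.12.

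Within Ti 26 cGy, Sik1 and Arntl split the hearts the same way. Replicates 2 and 3 read 7.70 and 7.64 for Arntl and 8.46 and 8.38 for Sik1, whereas replicates 1, 4 and 5 read 5.76, 5.56 and 5.59 for Arntl and 7.30, 7.12 and 7.28 for Sik1. Dbp ran the other way, at 7.91 and 8.10 in replicates 2 and 3 and at 10.69, 10.74 and 10.72 in the others. The 2 hearts with high Sik1 at this dose were thus those with high Arntl and low Dbp, 1 from each batch. The sham groups showed the clock genes apart as well: Arntl was 1.75 higher in Ti sham than in Si sham (adjusted p 0.00242, limma), and for Dbp the difference was -1.29 (0.115), beside the 0.65 of Sik1 that did not pass. The part of the clock genes in the Sik1 differences was not tested.

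**Figure D5:**
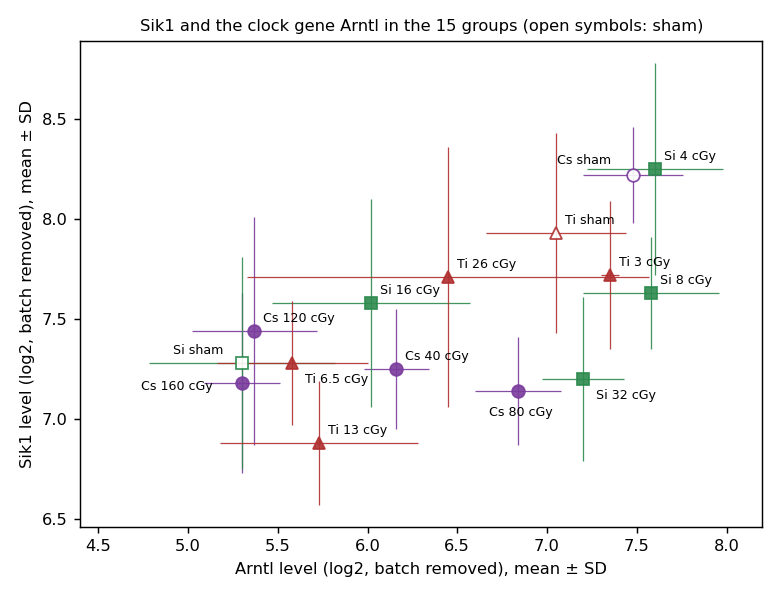
Mean Sik1 level (vertical axis) against mean Arntl level (horizontal axis), both log2 after batch removal with SD bars, in the 15 exposure groups; circles are Cs, squares Si and triangles Ti, and open symbols are shams. Si 4 cGy and Cs sham lie at the upper right (Sik1 8.25 and 8.22) and Si sham lies at the lower left (7.28), while Cs 80 cGy and Si 32 cGy have high Arntl and low Sik1. Sik1 was chosen by its levels in the Cs groups.

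The genes most like Sik2 were Prkar2b, a protein kinase A regulatory subunit abundant in fat (r 0.66), the glycerol-3-phosphate dehydrogenases Gpd2 and Gpd1, the fatty acid synthesis enzyme Acaca (0.62 each) and the insulin-regulated phosphodiesterase Pde3b (0.61). Among hearts of the same group the r with Prkar2b was 0.69, and its rank correlation over all arrays was 0.50, lower than Pearson's. Of the 5 adipocyte markers, all had an r with Sik2 between 0.42 and 0.63 (median 0.57), Plin1 highest, beside a median of -0.01 over all genes. The mean of these markers had an r of 0.61 with Sik2 and ranged from 3.44 to 7.88 log2 between hearts, with Lep above the 95th percentile of controls on no array and none of the 5 above it on all.

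Of the adipocyte markers none passed in 60 tests over the 12 doses, beside 1.22% of tests over all genes, and nothing is read from this. Their mean ran from 3.84 to 4.80 in the hearts of Cs 40 cGy, the lowest group with Cs 160 cGy (3.69 to 5.40), and from 3.99 to 7.88 in those of Ti 3 cGy, the highest. The heart with the highest value of the list lay in that group, where Sik2 ran from 6.29 to 7.05. Genes most opposed to Sik2 were the muscle creatine kinase Ckm (r -0.57), the sarcomere-associated gene Xirp1 (-0.52), Zfp784 and the phosphatase gene Ptpn5 (-0.49 each) and Pabpc4 (-0.48). None of these 10 genes passed at any dose except Ptpn5, which fell at Ti 6.5 cGy, where 5.60% of all genes passed.

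Sik3 was nearest to Fxr2, an RNA-binding relative of the fragile X protein (r 0.60), the sarcomere ubiquitin ligase Trim54 and the RNA-binding gene Rbm38 (0.58 each), the heparan sulfate proteoglycan Gpc1 and the mitochondrial outer membrane assembly gene Samm50 (0.57 each). Opposed were Tmem167 (-0.61), the annexin Anxa5 (-0.58), Vcpip1 (-0.57), AW549877 (-0.56) and Gm14295 (-0.55). Among hearts of the same group these values lay between 0.55 and 0.63 in size. Against the adipocyte list mean Sik3 had an r of -0.38 and against the fibroblast list mean -0.40, the sign opposite to Sik2 (0.61 and 0.28). Of the AMPK-related kinases, Mark4 was the one most like Sik3 (0.56). None of the 10 named genes passed at any dose except AW549877, which rose at Ti 6.5 cGy. Of tests over all genes 1.22% passed, and at Ti 6.5 cGy 5.60% of genes did.

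Between the members there was little shared variation. The r was 0.06 for Sik1 with Sik2, 0.14 for Sik1 with Sik3 and -0.41 for Sik2 with Sik3 over the 72 arrays.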

How the data were processed

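Heart RNA was measured on 72 Clariom S Mouse arrays. The deposited values are log2 signals made by the authors with RMA, which the submitters' processing notes name without a version. Array medians of the deposited values still ran from 4.17 to 6.35, so the 22206 transcript probe sets were quantile normalized with limma 3.58.1 in R 4.3.3. Of these, 19572 carry a gene symbol and 2634 none. The brightest probe set was kept for 55 genes with several, leaving 19505, all found in RefSeq GRCm38.p6. Per radiation type a linear model with group and batch was fitted with moderated statistics, and Benjamini-Hochberg ran over all genes, with a call at 0.25 as in the study. Comparisons of shams and of radiation types used all 72 arrays. Levels named as batch removed keep the 15 groups. SD is between hearts of a group. The number of arrays limits the precision.

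Named genes are the 3 kinases, list members that passed, Arntl, Dbp, and for each kinase the 5 genes with the highest and the 5 with the lowest correlation. Members and lists were chosen with earlier results of these data known. Listed genes not analysed here include Brsk2, Pde4d, Hdac5 and Crem, besides Pdgfra, Cd68 and Hbb-bt among cell type markers. The fit was tested on simulated data. Alternatives varied the batch term, the normalization, the arrays used, the moderation, the filter on dim genes and the threshold. Per-sample columns not used numbered 0.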

Additional observations from a re-analysis of the deposited data

Results flagged for a closer look

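Of 45 tests for a heart lying apart from the rest of its group (3 genes in 15 groups), 2 found one, where chance gives about 1 in 20. The Sik1 level of Ti 6.5 cGy replicate 3 was 7.74 log2 after batch removal, while the other 3 hearts of the group lay between 7.10 and 7.15. This is one of the 2 arrays labelled batch 1 that lie with batch 2, and the removal used the labelled batch. Before batch removal its level was 7.43, beside 7.45 in the batch 2 heart of its group and 6.79 and 6.84 in the others. The Sik2 level of Ti 26 cGy replicate 4 was 6.98, while the other 4 hearts lay between 6.48 and 6.53, and its level before batch removal was 6.91.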

How the results depend on the processing

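The mean Sik1 difference over the Cs doses, which chose the gene, ran from -1.06 to -0.91 over the settings that can alter a fitted difference and from -1.01 to -0.88 with single arrays left out. The threshold, the moderation, the dim gene filter and the use of every probe set cannot alter it. Without quantile normalization, on the values as deposited, the F tests passed for Sik1 over Si (adjusted p 0.165) and Ti (0.0828) and over Ti for Sik2 (0.168) and Sik3 (0.169), and Sik3 in Cs sham minus Si sham turned from -0.11 to 0.51. These values carry array-wide shifts: the median of all genes moved by -0.43 at Cs 160 cGy to 0.27 at Ti 6.5 cGy, and Sik1 relative to that median was -0.89 and -0.51 at these doses. In 1 fit of all 72 arrays Sik1 passed over Si (0.227) and Ti (0.248), and with dim genes left out over Ti (0.245). Leaving out arrays in turn gave 0.228 (without Ti sham replicate 5) to 0.465 for Sik1 over Ti and 0.607 to 1 over Si. The causes were not tested.

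The Sik1 call at Ti 13 cGy was lost, at a difference of like size, with no batch term (-1.04, adjusted p 0.427), values as deposited (-1.07, 0.463), aligned medians (-0.96, 0.256), trend and robust moderation (-1.04, 0.260) and a threshold of 0.05. At Ti 6.5 cGy Sik1 passed with the 2 arrays counted to batch 2 (-0.79, 0.239), in batch 1 alone (-0.93, 0.145), with dim genes left out (0.237), and without Ti sham replicate 4 (0.249), Ti sham replicate 5 (0.202) or Ti 26 cGy replicate 2 (0.243). At Si 4 cGy it passed in the fit of all arrays (0.98, 0.127). Si minus Ti passed with the 2 arrays in batch 2 (0.240) and without Ti sham replicate 5 (0.207), and Ti sham minus Si sham without that heart (0.191). Gene counts moved far more: at Cs 160 cGy 1347 genes passed, 49 with no batch term, 200 with a random batch block and 306 with the 2 arrays in batch 2, and at Ti 6.5 cGy 1093, 40, 439 and 721.

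Replicate numbers do not pair the hearts: same-numbered hearts had median correlations of -0.009, -0.015 and 0.019 (Cs, Si, Ti), and 5, 2 and 3 of 24 arrays matched their own number best. With a replicate block no call of the 3 kinases changed (Sik1 over Cs -0.99, F tests 0.649 over Si and 0.335 over Ti), and 748 genes passed at Cs 160 cGy.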
